A study of Mus musculus with 6 samples.

Results

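The expression of 5 transcription factor genes with known roles in the trophoblast was followed through retinoic acid (RA) treatment and hairpin knock-down of mouse F9 teratocarcinoma cells. The genes were Tfap2a, Tfap2c, Gata2, Gata3 and Esx1, chosen by name with earlier results of these data known. All 5 had 1 row each among the 25904 genes of the deposited table. Esx1 and Gata3 were higher after RA in each of the 3 lines, and Tfap2c was lower after RA in each of them. Gata2 was higher in the shRxr and shGFP lines and lower in shCtbp2. The falls of Gata2 and Tfap2c in shCtbp2 were only just beyond counting error. Tfap2a was lower after RA in shCtbp2 and within counting error in both other lines. In RA, Gata2, Gata3 and, by less, Esx1 were lower in the Ctbp2 knock-down line than in the control line.

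F9 cells are a pluripotent line that turns towards primitive endoderm in RA. All cells carried a short hairpin RNA: shCtbp2 against the corepressor Ctbp2, shRxr against a retinoid X receptor that the labels do not specify further, or shGFP, whose target the mouse genome lacks, as the control. They grew in medium with 8% charcoal-stripped serum, a serum with little retinoid of its own, and had 1 µM all-trans RA for 48 hours (RA) or no treatment (UT). The 6 groups were therefore shCtbp2_RA, shCtbp2_UT, shRxr_RA, shRxr_UT, shGFP_RA and shGFP_UT, with 1 RNA-seq library each, and nothing in the labels says how many clones or cultures stand behind a line. The study set out to learn what Ctbp2 and Rxr contribute to expression with and without RA.

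The trophoblast is the first extraembryonic lineage of the mammalian embryo and forms the fetal part of the placenta. In mouse, Gata3 acts beside Cdx2 in the outer cells of the early embryo, Gata2 and Gata3 drive hormone genes of trophoblast giant cells, and Tfap2c is needed for trophoblast maintenance. Tfap2a, a paralog of Tfap2c, is best known from surface ectoderm and neural crest, and Esx1 is an X-linked homeobox gene of placenta and testis whose loss disturbs placental growth. Several of these genes also work elsewhere, Tfap2c in germ cells and Gata2 in blood progenitors, so their RNA alone does not mark a cell type.

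Values are normalised reads, that is reads of a gene per 10000000 reads counted in genes of its library, and between 9955808 and 13322506 reads per library were counted. Intervals are 95% intervals that cover counting error only, since no group had a second library. Ctbp2 stood at 55.4 normalised reads in shCtbp2_RA and 210.1 in shCtbp2_UT, against 701 in shGFP_RA and 1811 in shGFP_UT. Rxra stood at 82.4 in shRxr_RA and 73.7 in shRxr_UT, against 805 in shGFP_RA and 520 in shGFP_UT. All 9 pluripotency markers of F9 cells had a value, with a summed level of 21094 to 49273 in RA libraries and 54283 to 55308 in UT libraries. Over the lines 6 of the 9 were lowered by RA and 0 raised. Pou5f1, the largest part of the sum, was higher in shCtbp2_RA (26185) than in shCtbp2_UT (18524), as was Dppa5a (8488 and 4940). The other markers were lower with RA in that line, and Pou5f1 was lower with RA in shRxr and shGFP. The 12 markers of primitive and parietal endoderm summed to 15681 to 28513 in RA libraries and 7549 to 8989 in UT libraries, with 10 of the 11 tested raised by RA, and their part in the results that follow was not tested. In such bulk RNA, fewer cells of a type and less RNA per cell cannot be told apart. Of 14 trophoblast markers 10 had a value, with a summed level of 376 to 598 in RA libraries and 271 to 412 in UT libraries. Most of that sum was Eomes, a T-box factor also used by mesoderm and endoderm, at 281 to 495 in RA libraries and 210.2 to 366 in UT libraries. Elf5, which guards the trophoblast fate, had at most 2 reads in a library, Plac1 at most 4, and the syncytins Syna and Synb at most 4 and 1. Gcm1, a syncytiotrophoblast factor, had at most 9. Of the other markers, Hand1, a giant cell factor, had 27, 30 and 31 reads in shCtbp2_RA, shRxr_RA and shGFP_RA, against 10, 17 and 14 in shCtbp2_UT, shRxr_UT and shGFP_UT. The keratin gene Krt7 had 23, 7 and 56 reads in the same RA libraries, against 4, 8 and 8 in the UT libraries, and Ascl2, a spongiotrophoblast factor, had 26 to 28 in RA libraries and 32 to 44 in UT libraries. Cdx2, a trophectoderm factor, had 19 to 78 reads in RA libraries and 2 to 3 in UT libraries. Trophoblast marker RNA was thus low but present, and its part in the results that follow was not tested either.

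Promoter sequence is shown for the 3 members with more RNA after RA in the control line, Gata3, Gata2 and Esx1, to set their start regions beside each other. RefSeq promoter windows of GRCm38.p6, 250 bases before to 50 after a start site, were found for 4 of the 5 members, all but Tfap2c. Each line runs 5′ to 3′ on the strand of the gene, and capitals mark matches on either strand to the motifs searched. These were the TFAP2 palindrome GCCNNNGGC, the GATA site (A or T, then GATA, then A or G) and the core hexamer of nuclear receptors (A or G, then G, then G or T, then TCA), alone or as a direct repeat with 1, 2 or 5 bases between.
Gata3 (chr2:9878551-9878850, minus strand): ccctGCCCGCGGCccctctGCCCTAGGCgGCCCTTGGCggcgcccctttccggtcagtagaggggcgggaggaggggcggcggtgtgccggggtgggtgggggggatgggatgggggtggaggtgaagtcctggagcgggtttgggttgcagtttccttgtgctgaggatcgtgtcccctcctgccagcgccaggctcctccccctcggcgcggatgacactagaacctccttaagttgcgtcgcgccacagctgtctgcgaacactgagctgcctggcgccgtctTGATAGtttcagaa
Gata2, downstream start (chr6:88198414-88198713, plus strand): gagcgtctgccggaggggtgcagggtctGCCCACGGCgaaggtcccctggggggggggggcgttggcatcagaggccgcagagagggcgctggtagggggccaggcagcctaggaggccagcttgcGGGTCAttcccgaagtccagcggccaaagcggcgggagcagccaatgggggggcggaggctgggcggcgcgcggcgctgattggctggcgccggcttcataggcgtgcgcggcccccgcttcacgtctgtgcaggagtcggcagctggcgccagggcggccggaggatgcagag
Esx1 (chrX:137120277-137120576, minus strand): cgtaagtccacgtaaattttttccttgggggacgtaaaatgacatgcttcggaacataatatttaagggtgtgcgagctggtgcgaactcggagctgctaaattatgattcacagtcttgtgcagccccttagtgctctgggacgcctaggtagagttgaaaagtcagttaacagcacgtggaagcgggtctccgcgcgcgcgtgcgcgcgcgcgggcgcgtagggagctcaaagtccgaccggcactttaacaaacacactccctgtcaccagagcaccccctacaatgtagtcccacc

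The Gata3 window held 3 TFAP2 palindromes, which begin at -246, -231 and -221 from the start site, and the GATA site TGATAG, which begins at 37 after it. The Gata2 window shown held 1 palindrome, at -222, and 1 core hexamer, GGGTCA, at -124. The windows of Esx1, of the upstream Gata2 start and of both Tfap2a starts held no match. Of 32544 promoter windows, 16.7% held the palindrome, 29.6% a GATA site and 43.7% a core hexamer, so each of these matches is common. Direct repeats of the hexamer were in 0.224%, 0.270% and 0.0983% of windows at spacings of 1, 2 and 5 bases, and in none of the 6 member windows. A match is letters only, and its absence here says nothing about sites elsewhere.

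The first comparison asked what RA did to the 5 genes over the lines. Esx1 and Gata3 rose, and for both the 3 RA libraries lay above the 3 UT libraries without overlap, as they did for 24.1% of the 12332 genes tested (those with a mean of at least 20 normalised reads, which all 5 members passed). The test was limma with line and treatment as terms over the 6 libraries, in which lines stand in as replicates, on log2(value + 10), with p-values adjusted over those 12332 genes by Benjamini-Hochberg. By this test 10.8% of genes rose and 4.63% fell at an adjusted p under 0.05, and among the 5 members 2 rose and 0 fell. At an unadjusted p under 0.05 there were also 2 members, against 31% of all genes in either direction, and voom on the recovered reads gave 2 and 0 as well.

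**Figure D1:**
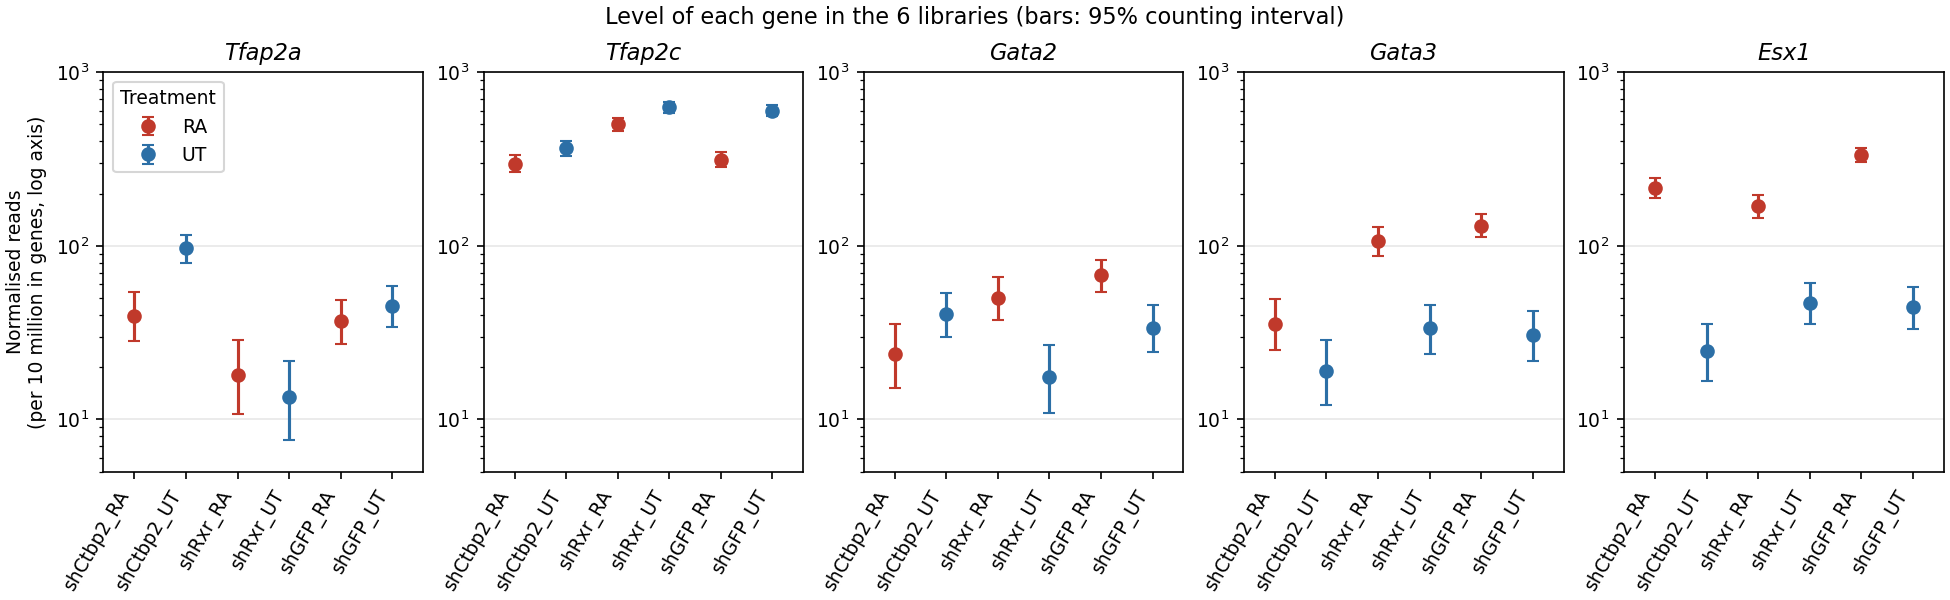
Normalised reads (log axis) of each gene in the 6 libraries, RA in red and UT in blue, with 95% counting intervals; each point is 1 library. RA points lie above UT points in every line for Esx1 and Gata3 and below them for Tfap2c, and Gata2 and Tfap2a change order between lines.

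Esx1 (ENSMUSG00000023443, mm9 chromosome X, 133649936 to 133656622) had 215.8, 170 and 333 normalised reads in shCtbp2_RA, shRxr_RA and shGFP_RA, against 24.8, 46.9 and 44.3 in shCtbp2_UT, shRxr_UT and shGFP_UT. The lowest RA library was thus far above the highest UT library. The RA fold was 8.70 in shCtbp2 (5.92 to 13.2), 3.62 in shRxr (2.66 to 4.99) and 7.52 in shGFP (5.68 to 10.1). Corrected for GC content and length, its log2(value + 10) RA difference was 2.06 in shCtbp2, 1.71 in shRxr and 2.50 in shGFP, so the largest was then in shGFP and not in shCtbp2. Over the lines Esx1 rose by a log2 of 2.34 (limma, SE 0.31, adjusted p 0.00035), the 143rd highest RA change among the genes tested. It passed the threshold in all 18 alternative fits, with log2 changes from 1.68 to 2.68. These fits were not all separate checks. Leaving out either library of a line gave the same RA change as leaving out the whole line.

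Gata3 (ENSMUSG00000015619, mm9 chromosome 2, 9778705 to 9811661) had 35.6, 106.5 and 130.6 normalised reads in shCtbp2_RA, shRxr_RA and shGFP_RA, against 19.0, 33.5 and 30.6 in shCtbp2_UT, shRxr_UT and shGFP_UT. The shCtbp2_RA library was close to the shRxr_UT level, while the other RA libraries stood well above every UT library. The RA fold was 1.87 in shCtbp2 (1.08 to 3.31), 3.18 in shRxr (2.19 to 4.70) and 4.27 in shGFP (2.99 to 6.23). Over the lines Gata3 rose by a log2 of 1.29 (limma, SE 0.32, adjusted p 0.015), ranked 732nd among RA changes. The call was lost without the shGFP line or either of its libraries, which all gave the same log2 change of 1.04. It was also lost with no filter on the mean (limma adjusted p 0.069) and with no term for the line (limma adjusted p 0.10). It held in 12 of 17 alternative fits, among which leaving out a line and leaving out either of its libraries gave the same RA change.

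Gata2 (ENSMUSG00000015053, mm9 chromosome 6, 88143885 to 88157024) had 23.8, 50.2 and 67.6 normalised reads in shCtbp2_RA, shRxr_RA and shGFP_RA, against 40.5, 17.6 and 33.8 in shCtbp2_UT, shRxr_UT and shGFP_UT. RA and UT libraries overlapped, and the RA library was the lower one in shCtbp2 and the higher one in both other lines. Gata2 was 1.71-fold lower in RA in shCtbp2 (1.03 to 2.91), 2.86-fold higher in shRxr (1.69 to 5.01) and 2.0-fold higher in shGFP (1.37 to 2.95). The shCtbp2 interval thus nearly reached 1, and it holds for the scaling used here. Over the lines the log2 change was 0.46 (limma, SE 0.36, adjusted p 0.41), which did not pass, nor did it in any of 17 alternative fits (log2 changes of 0.10 to 0.98).

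Tfap2c (ENSMUSG00000028640, mm9 chromosome 2, 172375093 to 172384122) had 298, 501 and 314 normalised reads in shCtbp2_RA, shRxr_RA and shGFP_RA, against 364, 629 and 599 in shCtbp2_UT, shRxr_UT and shGFP_UT. Within each line RA was the lower library, but the ranges overlapped, since shRxr_RA was above shCtbp2_UT. Tfap2c was 1.22-fold lower in RA in shCtbp2 (1.05 to 1.42), 1.26-fold lower in shRxr (1.12 to 1.41) and 1.91-fold lower in shGFP (1.69 to 2.16). Over the lines the log2 change was -0.51 (limma, SE 0.27, adjusted p 0.22), which did not pass. It passed in 1 of 18 alternative fits, the one corrected for GC content and length (log2 -0.71, adjusted p 0.035), and adjusted p ran from 0.035 to 0.91 over them.

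Tfap2a (ENSMUSG00000021359, mm9 chromosome 13, 40811044 to 40829192) had 39.6, 18.1 and 36.8 normalised reads in shCtbp2_RA, shRxr_RA and shGFP_RA, against 96.8, 13.4 and 45.1 in shCtbp2_UT, shRxr_UT and shGFP_UT. One library, shCtbp2_UT, stood above all others, and the 2 shRxr libraries, with 18 and 16 reads, stood below them. Tfap2a was 2.44-fold lower in RA in shCtbp2 (1.69 to 3.59). In shRxr the RA fold was 1.35 (0.65 to 2.83) and in shGFP 0.815 (0.544 to 1.22), both within counting error. Over the lines the log2 change was -0.36 (limma, SE 0.33, adjusted p 0.49), and without the shCtbp2 line it was 0.01.

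**Figure D2:**
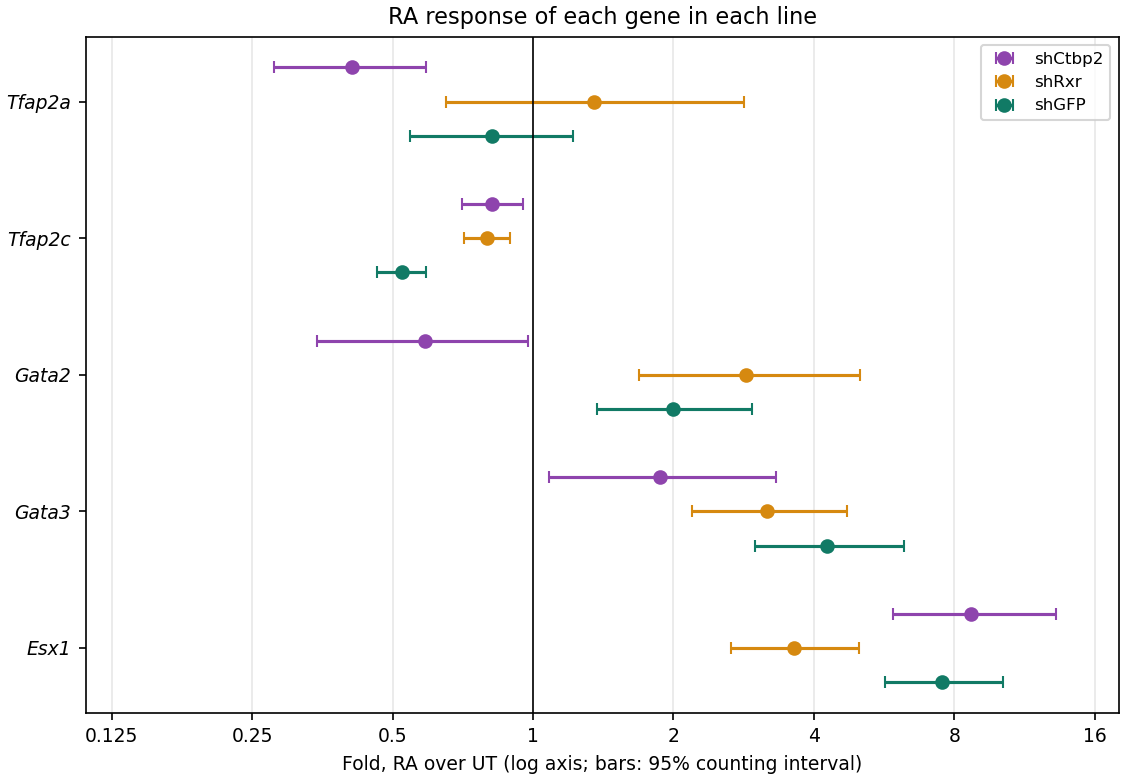
Fold of RA over UT (log axis) for each gene in the shCtbp2, shRxr and shGFP lines, with exact 95% counting intervals and a line at 1. Before any GC correction Esx1 ran from 3.62 in shRxr to 8.70 in shCtbp2. With the scaling used, the shCtbp2 interval of Gata2 (0.344 to 0.974) lay just below 1 while those of shRxr and shGFP lay above it.

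Counted by size, at least 2-fold on the log2(value + 10) scale, the lines differed in which members they counted. In shCtbp2 1 member was higher with RA (Esx1) and 1 lower (Tfap2a), where 15.1% and 19.3% of all genes tested were. In shRxr 3 were higher (Esx1, Gata3 and Gata2) and none lower, against 5.26% and 1.46% of all genes, and in shGFP 2 were higher (Esx1 and Gata3) and none lower, against 13.4% and 7.07%. With a pseudocount of 50, which damps low genes, shCtbp2 had none lower and shRxr had 1 higher. Upper quartile scaling moved the median of all genes by -0.10 in shRxr and -0.16 in shGFP on the log2 scale. In shGFP, where Tfap2c lay just inside 2-fold, 1 was lower with upper quartile scaling, with median of ratios scaling and with the correction for GC content and length. Esx1 was the 1 member at least 2-fold higher in all 3 lines, as were 3.76% of the genes tested, and no member was lower in all of them (0.933% of genes).

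The next comparison set the Ctbp2 knock-down against the control line. In RA, Gata2, Gata3 and Esx1 were lower in shCtbp2, and with no treatment Tfap2a was higher and Tfap2c and Esx1 were lower. At 23.8 normalised reads in shCtbp2_RA and 67.6 in shGFP_RA, Gata2 was 2.84-fold lower (1.80 to 4.67). At 40.5 in shCtbp2_UT and 33.8 in shGFP_UT it differed by less than counting error (fold 1.20, 0.777 to 1.85). Gata3 was 3.67-fold lower in RA (2.55 to 5.40), at 35.6 in shCtbp2_RA and 130.6 in shGFP_RA, and at 19.0 in shCtbp2_UT and 30.6 in shGFP_UT its fold of 0.622 (0.354 to 1.07) was within counting error. Esx1 was lower at both treatments, 1.54-fold in RA (1.31 to 1.82) and 1.79-fold untreated (1.12 to 2.89). Both GATA genes thus stood apart from shGFP beyond counting error in RA and not untreated, and Esx1 did so at both treatments.

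The TFAP2 genes differed beyond counting error untreated and not in RA. Tfap2a was 2.15-fold higher untreated (1.55 to 3.01), at 96.8 normalised reads in shCtbp2_UT and 45.1 in shGFP_UT, and in RA its fold was 1.08 (0.691 to 1.67). Tfap2c was 1.65-fold lower untreated (1.46 to 1.86), at 364 in shCtbp2_UT and 599 in shGFP_UT, and in RA its fold was 0.95 (0.816 to 1.10). By size, 2 members were at least 2-fold lower in RA, where 14.8% of all genes tested were, and none was higher, against 3.18%. Untreated none of the 5 was counted in either direction, against 1.39% higher and 2.34% lower of all genes, although with a pseudocount of 1 Tfap2a was counted as higher. With libraries scaled to equal upper quartiles the median of all genes in RA moved by 0.24 on the log2 scale, and Gata2 and Gata3 then had log2 differences of -1.0 and -1.41, while Tfap2c turned from -0.07 to 0.17. Over both treatments limma called 0 of 5 members, where it raised 0.105% and lowered 0.0405% of all genes. At an unadjusted p under 0.05 there was 1 member, against 8.85% of all genes, and it was Gata3 (log2 -1.05, SE 0.39, adjusted p 0.40), and voom called 0.

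The difference in RA response, the log2 RA fold of shCtbp2 minus that of shGFP, was -1.77 for Gata2 (-2.65 to -0.89) and -1.19 for Gata3 (-2.10 to -0.28). It was -1.0 for Tfap2a (-1.75 to -0.24), 0.64 for Tfap2c (0.37 to 0.92) and 0.21 for Esx1 (-0.47 to 0.89). The interval of Esx1 held 0, so at this depth no difference between these lines was detectable for it, and on the log2(value + 10) scale it turned from 0.04 to -0.44 with the correction for GC content and length. On the log2(value + 10) scale 2 members, Gata2 and Gata3, had a response smaller by 1 or more, as had 12.4% of the genes tested, and none had a larger one (2.72% of genes). With upper quartile scaling Gata3 was at -0.92 and Gata2 alone was counted, and with a pseudocount of 50 neither was.

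The shCtbp2_RA library had higher values at higher GC content, with a Spearman correlation of 0.65 across 12133 genes between GC content and how far a gene stood from its 6-library average, against 0.25 in shGFP_RA and -0.44 to -0.40 in the others. The longest annotated transcripts of Gata2, Esx1, Tfap2c, Gata3 and Tfap2a have a GC content of 58.2%, 54.7%, 52.7%, 49.7% and 48.7%. After a correction for GC content and length the log2(value + 10) differences between shCtbp2_RA and shGFP_RA were -1.53 for Gata2 and -1.64 for Gata3, against -1.20 and -1.62 before it. Those of Esx1 were -1.14 after the correction and -0.60 before it, past the 2-fold mark only with it. The differences of both GATA genes were thus at least as large with the correction as without.

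**Figure D3:**
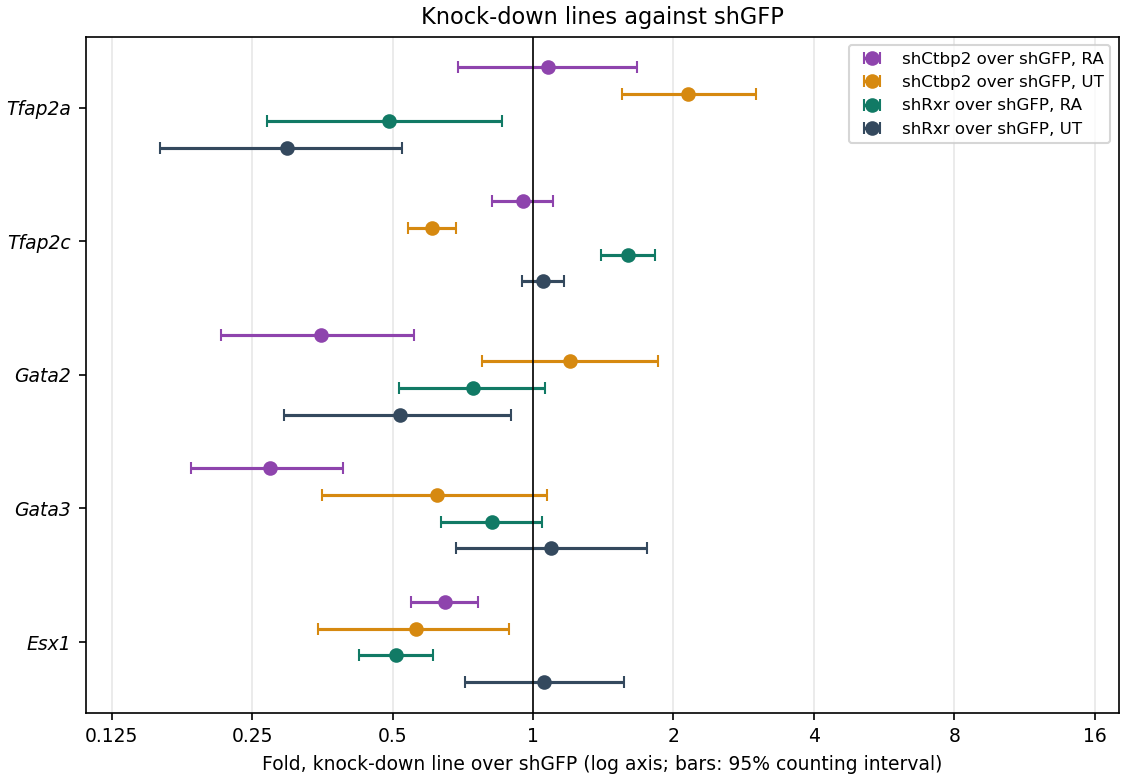
Fold of each knock-down line over shGFP (log axis) in RA and UT for each gene, with exact 95% counting intervals and a line at 1; all folds of 1 treatment share the same shGFP library. Gata2 and Gata3 were at 0.352 and 0.273 in shCtbp2_RA, and Tfap2a in the shRxr line was at 0.492 in RA and 0.297 in UT.

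In the Rxr knock-down line Tfap2a and Esx1 stood lower than in the same control libraries. Tfap2a was 2.03-fold lower in RA (1.16 to 3.71), at 18.1 normalised reads in shRxr_RA and 36.8 in shGFP_RA, and 3.37-fold lower untreated (1.90 to 6.29), at 13.4 in shRxr_UT and 45.1 in shGFP_UT. Esx1 was 1.96-fold lower in RA (1.64 to 2.36), at 170 in shRxr_RA and 333 in shGFP_RA, while untreated its fold was 1.06 (0.716 to 1.56). Both Tfap2a libraries of the line were therefore low, and Esx1 differed beyond counting error in RA and not untreated.

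Of the other 3 members, Gata2 and Tfap2c differed beyond counting error at 1 treatment each. Gata2 was 1.92-fold lower in shRxr untreated (1.11 to 3.42), and its RA fold over shGFP of 0.743 (0.515 to 1.06) was within counting error. Gata3 differed by less than counting error at both treatments, with folds of 0.815 in RA (0.634 to 1.04) and 1.09 untreated (0.684 to 1.75). Tfap2c was 1.60-fold higher in RA (1.4 to 1.82), at 501 in shRxr_RA and 314 in shGFP_RA, and its untreated fold was 1.05 (0.948 to 1.16). By size, in RA no member was at least 2-fold higher or lower, against 3.74% and 2.62% of all genes. Untreated 1 was lower, Tfap2a, against 0.0649% of all genes, and none was higher, against 0.389%. Tfap2a had few reads in this line, 18 and 16, and with a pseudocount of 50 none was lower. The limma contrast over both treatments called 0 of 5, and 0% raised and 0.00811% lowered of all genes. At an unadjusted p under 0.05 there was 1 member, against 1.23% of all genes, and it was Tfap2a (log2 -0.99, SE 0.41, adjusted p 1.0), and voom called 0.

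The RA response of Esx1 was smaller in shRxr than in shGFP, with a log2 ratio of folds of -1.05 (-1.65 to -0.46). That of Tfap2c, a response downwards, was weaker by 0.60 (0.37 to 0.84). The intervals of Gata3 (-0.42, -1.15 to 0.30), Gata2 (0.52, -0.39 to 1.42) and Tfap2a (0.73, -0.39 to 1.85) all held 0. On the log2(value + 10) scale Esx1 was the 1 member with a response smaller by 1 or more, against 4.47% of all genes, and none had a larger one, against 5.6%. At -1.0 it lay at the mark itself, and it was not counted with upper quartile scaling (-0.95), with a pseudocount of 50 or with values corrected for GC content and length (-0.79), the last an alternative chosen after seeing the data.

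Set side by side as folds over the shared shGFP_RA library, Gata2, Gata3, Esx1, Tfap2a and Tfap2c were at 0.352, 0.273, 0.647, 1.08 and 0.95 in shCtbp2_RA. In shRxr_RA they were at 0.743, 0.815, 0.509, 0.492 and 1.60. The GATA genes had the lowest folds in shCtbp2_RA, and Tfap2a and Esx1 in shRxr_RA, with no test between the lines. Corrected for GC content and length, the log2(value + 10) difference of Esx1 was -1.14 in shCtbp2_RA and -0.75 in shRxr_RA, so which line had less Esx1 turned round.

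Levels of the 5 genes are comparable with each other only per length. Per kilobase of the longest annotated transcript, Tfap2c led in every UT library, with 122, 211 and 201 normalised reads per kilobase in shCtbp2_UT, shRxr_UT and shGFP_UT. Esx1 passed it in 2 RA libraries, with 128 and 197 per kilobase in shCtbp2_RA and shGFP_RA, against 99.8 and 105.1 for Tfap2c. In shRxr_RA Tfap2c stayed ahead, at 168 against 100.3 for Esx1. Gata3, Gata2 and Tfap2a, at 3.84 to 40.6 per kilobase over all libraries, were below Tfap2c in each library and below Esx1 in the RA libraries. In shRxr_UT and shGFP_UT Esx1, at 27.7 and 26.2 per kilobase, was above these genes too. The highest of them were Gata3, at 10.4 in shRxr_UT, and Tfap2a, at 12.9 in shGFP_UT. In shCtbp2_UT Tfap2a was above Esx1, at 27.8 against 14.7, and Gata2 and Gata3 were below it, at 11.3 and 5.92.

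In the order of levels over the 6 libraries, many neighbours lay within counting error of each other. No neighbouring pair of Gata2 differed beyond it, although its highest library, shGFP_RA, was 3.84 times its lowest, shRxr_UT. For Gata3 only the step between shRxr_RA and shCtbp2_RA exceeded it, 2.99-fold (2.03 to 4.49), and it set shGFP_RA and shRxr_RA apart from the other 4. For Esx1 4 of the 5 steps did, all but that between shRxr_UT and shGFP_UT. For Tfap2c the 2 highest, shRxr_UT and shGFP_UT, and the 2 lowest, shGFP_RA and shCtbp2_RA, could not be told apart.

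Of 50 other genes in 5 related lists, 44 had a value and 28 passed the filter. By limma 11 of the 28 rose and 2 fell with RA, against 10.8% and 4.63% of all genes, and their median log2 change was 0.56, against 0.07 for all genes tested. Among the other GATA genes both of those tested rose. Gata6, a primitive endoderm regulator, rose by 4.07 (SE 0.29) and Gata4, another, by 2.15 (SE 0.28). Gata1, a red cell factor, was below the filter, at 25.7, 3.01 and 4.5 normalised reads in shCtbp2_RA, shRxr_RA and shGFP_RA, against 44.7, 15.1 and 22.6 in shCtbp2_UT, shRxr_UT and shGFP_UT. Gata5, also below the filter, was at 3.96, 2.01 and 19.5 in the RA libraries in that order, and at 0 in each UT library. Of the other TFAP2 genes Tfap2e alone passed the filter (log2 0.67, limma adjusted p 0.18). Tfap2b and Tfap2d had at most 1 read in a library.

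Among 12 tested trophoblast transcription factors of 16, 3 rose and 1 fell (median log2 0.21). Zfpm1, or FOG1, a GATA cofactor, rose by 2.77 (SE 0.35), Dlx3, a homeobox gene of placenta and epidermis, by 2.44 (SE 0.34) and Msx2, a BMP-responsive homeobox gene, by 1.75 (SE 0.35). Klf5, a pluripotency and trophectoderm factor, fell by 1.0 (SE 0.27). Eomes (0.40, adjusted p 0.33) and Tead4, which acts upstream of Cdx2 in the mouse embryo (-0.53, adjusted p 0.20), did not pass. Cdx2 itself was below the filter, with 18.8, 20.1 and 58.5 normalised reads in shCtbp2_RA, shRxr_RA and shGFP_RA, against 1.65, 1.67 and 2.42 in shCtbp2_UT, shRxr_UT and shGFP_UT. The RA fold of Cdx2 was 11.4 in shCtbp2 (2.74 to 100.6), 12.0 in shRxr (2.92 to 106) and 24.2 in shGFP (7.99 to 120.0), each against 2 or 3 untreated reads.

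Of 17 trophoblast lineage markers 6 were tested, and 3 rose and 1 fell (median 1.19). The FGF receptor gene Fgfr2 rose by 2.82 (SE 0.28), and the simple epithelial keratins Krt18 and Krt19 by 1.84 (SE 0.35) and 1.66 (SE 0.34). The cadherin gene Cdh3 fell by 1.24 (SE 0.26). These genes are also active in endoderm and other epithelia, and 6 of the 17, Tpbpa, Tpbpb, Prl3d1, Prl3b1, Prl2c2 and Ctsj, had no value under these names and were not analysed here. Among 8 tested cofactors of TFAP2 and GATA proteins of 11, 4 rose and none fell (median 0.91), Zfpm1 among them. Cited1 and Cited4, of a family of TFAP2 coactivators, rose by 2.06 (SE 0.34) and 1.47 (SE 0.38), and Kctd1, a TFAP2 repressor in mammals, by 1.09 (SE 0.29), while Cited2 (0.72, adjusted p 0.069) did not pass. No related gene was called for shCtbp2 or shRxr by limma. At an unadjusted p under 0.05 there were 6 and 3 of the 28, where 8.85% and 1.23% of all genes tested were, and voom called 0 for both.

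The genes most like each member were found by the root mean square difference of centred log2(value + 10) over the 6 libraries, which all genes share, among 12331 others. Nearest to Esx1 were Nelf (0.09), Slc43a3 (0.13), Efnb1 (0.15), the collagen chaperone gene Serpinh1 (0.17) and 4632428N05Rik (0.17). Nearest to Gata3 were Ulk2 (0.11), then Ptpdc1, Bicc1, Lpar6 and the basement membrane collagen gene Col4a5 (0.13 to 0.14). Nearest to Gata2 were Mertk and Fam55d (both 0.14), Vwa5a (0.17), Cdh10 (0.19) and Il13ra1 (0.20). Nearest to Tfap2c were Matn1 (0.08), Csad (0.13), Enc1 (0.14), A230103J11Rik and 4632427E13Rik (both 0.15), and to Tfap2a Rasgrp1 (0.26), Afap1l2 (0.28), Plbd1 and Dapk2 (both 0.29) and Arhgap22 (0.33). Between members the distances were larger, but the nearest genes were picked as the smallest of 12331 distances, so this says little. The closest pair was Gata2 and Gata3 (0.61), Gata3 and Esx1 were at 0.72, and the farthest pair was Tfap2a and Esx1 (1.60). Distances between ordinary pairs of genes were not computed, so how close these are cannot be judged.

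Reads of overlapping genes could have entered 2 of the members. Within the bounds of Gata3 the table lists 4930412O13Rik, at most at 1.5 normalised reads. Across the 5′ end of Tfap2a, a minus strand gene, it lists the long non-coding Gm16989, at most at 1.0. Neither reached 3 reads in a library, and no listed gene overlapped Tfap2c, Gata2 or Esx1. Since the counting mode and strand setting are not given, reads in a shared stretch may have been left out of both genes. The low counts therefore do not bound the effect on Gata3 or Tfap2a.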

How the data were processed

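RNA-seq libraries were made from total RNA with a TruSeq RNA kit, per the labels' protocols. The submitters' processing notes name TopHat 1.4, HTSeq and the mm9 build. Not given in the sources used here were HTSeq's mode and strand setting and its annotation. The authors deposited log2 values of reads per 10000000 counted in genes, plus 1. Unlogged, 100% of values were whole reads within 1e-06 of a read, which gives the depths of 9955808 to 13322506 reads. All value columns matched a library, and 0 were left over.

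Levels are unlogged values. Folds have exact binomial (Clopper-Pearson) and levels exact Poisson intervals, at 95%, for counting error only. Differences in RA response have normal intervals from the same reads. Tests used limma 3.58.1 in R 4.3.3 (trend on log2(value + 10), line and treatment as terms, 2 residual and 11.2 prior degrees of freedom) on 12332 of 23886 genes with a read, those with a mean of at least 20, adjusted by Benjamini-Hochberg at 0.05. P-values set a change against a variance drawn mostly from a trend over all genes tested (the 11.2 prior degrees of freedom). Its smaller part, with 2 residual degrees of freedom, is what the line and treatment terms leave over in the gene itself. That part is how unequal the RA response was between lines. The p-values do not measure the spread between replicate cultures, nor mainly how even the response of 1 gene was. An exact sign-flip test over 3 pairs cannot go below 0.25 (two-sided). The model was tested on simulated data. The remaining code ran in Python 3.11.15 (pandas 2.3.3, numpy 2.4.6, matplotlib 3.10.9, scipy 1.17.1).

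The members and lists were chosen with earlier results of these data known. Named were the members, the targets Ctbp2 and Rxra, genes of the related lists, and the 5 nearest genes of each member. GC content and length came from the longest GENCODE M21 transcript (98.4% of tested genes). Alternatives were other scalings, pseudocounts and filters, voom, a correction for GC content and length, no term for the line, and leaving out each library or line. The marker lists of surface ectoderm and neural crest (5 of 7 tested raised by RA and 1 lowered), blood and endothelium (2 of 3 and 0) and fibroblasts (1 of 2 and 1) were also run.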

Additional observations from a re-analysis of the deposited data

Results flagged for a closer look

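The RA fold of Gata2 lay on opposite sides of 1 in different lines. It was 0.586 in shCtbp2 (95% counting interval 0.344 to 0.974, from 24 reads in shCtbp2_RA and 49 in shCtbp2_UT), 2.86 in shRxr (1.69 to 5.01) and 2.0 in shGFP (1.37 to 2.95). The difference between lines was not tested, since each line had 1 library per treatment. The shCtbp2 interval nearly reached 1. Upper quartile scaling moved the median of all genes in shCtbp2 by 0.086 on the log2 scale. The Gata2 difference of log2(value + 10) in shCtbp2 then went from -0.58 to -0.52. No interval was computed with that scaling. Corrected for GC content and length, the RA difference of log2(value + 10) was -1.28 in shCtbp2, 1.10 in shRxr and 0.49 in shGFP.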

How the results depend on the processing

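With 1 library per group, all limma results rest on lines or treatments standing in as replicates. For RA, 2 members rose and 0 fell in the fit reported. The count that rose was 1 with no filter on the mean, with a mean of at least 100 (where 2 members were tested) and with no term for the line, and 1 to 2 when a library or a line was left out; with values corrected for GC content and length 1 fell (Tfap2c). Of 87 single member values for RA, 78 kept direction and side, 5 lost the call (all Gata3), 1 gained it and 3 changed direction. These 3 were of Tfap2a, all at the same 0.014, in a range of -0.67 to 0.014 when a library or line was left out. For RA, leaving out either library of a line gave the same log2 change as leaving out the line. Those values are therefore not separate checks. Directions also changed, each without a call, for the shCtbp2 effect in Tfap2a (-0.041 to 1.08) and Gata2 (-1.28 to 0.28) and for the shRxr effect in Gata3 (-0.46 to 0.29) and Esx1 (-0.94 to 0.076), when a library was left out. The term for the line is a replicate block that pairs RA and UT libraries; with 3 such pairs an exact sign-flip test cannot go below 0.25 and was not used for calls. Counts by size moved as follows. With a pseudocount of 50, 0 members were lower with RA in shCtbp2, 1 was higher in shRxr, 1 was lower in shCtbp2 in RA, 0 were lower in shRxr untreated, and 0 had a smaller RA response in either knock-down line. With a pseudocount of 1, 1 was higher in shCtbp2 untreated. With upper quartile scaling 1 was lower with RA in shGFP, 1 had a smaller RA response in shCtbp2 and 0 in shRxr; with median of ratios scaling 1 was lower with RA in shGFP. With the correction for GC content and length 2 were lower with RA in shCtbp2 and 1 in shGFP. With it 0 had a smaller RA response in shRxr, an alternative chosen after seeing the data, and 3 members, Esx1 included, were lower in shCtbp2_RA than in shGFP_RA. The cause of these moves was not tested. A test of the recovered reads with a count model was not run. Gata2 had 21 to 90 reads per library and Tfap2a as few as 16, which limits their precision.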
